A study of Homo sapiens with 20 samples.

Results

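IRF4 regions of the multiple myeloma line NCI-H929 that have no counterpart in the myeloma line MM1.S were examined. They were chosen by rule from peak calls of DMSO-treated cells. A region of the NCI-H929 IRF4 list on chromosomes 1 to 22 or X was taken when it overlapped no region of the MM1.S IRF4 list and none of the MM1.S POU2AF1 list by even 1 base. Of 65174 regions in the NCI-H929 IRF4 list, 36384 met the rule (55.8%), and they are called NCI-H929-only regions here. The remaining 28790 regions of the list are called the other regions. By the mirrored rule, 10963 of the 33326 MM1.S IRF4 regions overlapped neither NCI-H929 DMSO list. Those 3 sets of calls chose the members, so neither the number of NCI-H929-only regions nor their absence from the MM1.S DMSO lists is a finding.

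The series holds 20 ChIP-seq peak lists with 562708 regions on these chromosomes, from cells given AU-15330 or DMSO. IRF4 and POU2AF1 were mapped in both myeloma lines. The transcription factor POU2F3 or HA-tagged proteins were mapped in the small cell lung cancer lines NCI-H526 and NCI-H1048 of the POU2F3 subtype (SCLC-P). The labels give the HA-tagged POU2F3 and POU2AF2 samples as dTAG cells. By the paper these express an exogenous HA-tagged dTAG fusion, with Cas9 and with the endogenous gene knocked out. AU-15330 is a PROTAC that degrades SMARCA2 and SMARCA4, the ATPases of the mSWI/SNF chromatin remodelling complex. It was given at 1 µM, for 4 to 6 h by the sample labels. Each condition has 1 library, so no difference was tested, no p-value is given, and the exact 95% binomial intervals in parentheses cover counting error only. The myeloma samples are established, untagged lines probed with antibodies to the native proteins, and each line stands for the cells of 1 patient.

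IRF4 is the interferon regulatory factor that plasma cells and myeloma cells need to survive. It binds DNA weakly alone and pairs with partners on composite motifs: with the ETS factors PU.1 and SPIB on the EICE, with BATF-JUN dimers on the AICE, and with itself on ISRE-type repeats. AP-1 is the family of JUN, FOS and BATF dimers, whose preferred site is the palindrome-like word TGAGTCA. POU2AF1, also called OCA-B, has no DNA-binding domain of its own and is known as the B cell coactivator of octamer-binding POU factors.

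Windows from some of the strongest NCI-H929-only regions that hold such motifs are printed to show the sequence that IRF4 was called on. Each window holds the 121 bases centred on the summit of the region in hg38, on the plus strand, and the region is named by its nearest protein-coding transcription start site (TSS). These windows were chosen after their values were seen. In the first 2 windows the capitals mark the AP-1 word TGAGTCA or its complement TGACTCA.
CCDC73, chr11:32658831-32658951, plus strand: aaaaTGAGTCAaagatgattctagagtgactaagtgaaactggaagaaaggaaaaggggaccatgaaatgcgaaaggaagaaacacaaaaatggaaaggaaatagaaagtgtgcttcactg
SNX9, chr6:157800729-157800849, plus strand: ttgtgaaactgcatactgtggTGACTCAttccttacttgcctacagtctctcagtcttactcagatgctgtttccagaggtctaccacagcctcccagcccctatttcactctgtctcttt

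In the next pair the capitals mark an AICE, an IRF word beside an AP-1 word. The POU3F2 window has the adjacent form, GAAA followed directly by TGANTCA (N is any base), and the IRX4 window the spaced form, TTTC and TGANTCA with any 4 bases between them.
POU3F2, chr6:98433465-98433585, plus strand: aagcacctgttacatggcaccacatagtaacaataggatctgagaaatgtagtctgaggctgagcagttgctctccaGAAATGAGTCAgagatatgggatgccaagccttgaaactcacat
IRX4, chr5:2149256-2149376, plus strand: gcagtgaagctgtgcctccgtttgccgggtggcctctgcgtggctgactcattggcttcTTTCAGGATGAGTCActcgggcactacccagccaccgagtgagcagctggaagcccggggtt

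In the KIF26A and ACOXL windows the capitals mark the ISRE-type repeat, GAAA and GAAA with any 2 bases between them, and in the MOCS2 window the EICE, GGAA and GAAA spaced likewise, all on the minus strand.
KIF26A, chr14:104300467-104300587, plus strand: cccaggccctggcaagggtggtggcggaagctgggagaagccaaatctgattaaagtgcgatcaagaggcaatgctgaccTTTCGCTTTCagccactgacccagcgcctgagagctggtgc
ACOXL, chr2:110882097-110882217, plus strand: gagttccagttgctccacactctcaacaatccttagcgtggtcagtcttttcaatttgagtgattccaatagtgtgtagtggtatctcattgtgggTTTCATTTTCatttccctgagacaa
MOCS2, chr5:53069776-53069896, plus strand: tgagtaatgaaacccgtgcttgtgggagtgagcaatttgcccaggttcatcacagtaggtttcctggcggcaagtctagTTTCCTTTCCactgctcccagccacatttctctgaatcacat

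In the last pair the capitals mark the RUNX word AACCACA or its complement. The SDC3 window, from the strongest NCI-H929-only region of all, holds 2 copies.
SDC3, chr1:30869181-30869301, plus strand: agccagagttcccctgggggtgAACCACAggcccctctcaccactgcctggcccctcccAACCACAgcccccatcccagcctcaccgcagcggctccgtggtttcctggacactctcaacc
LRIG3, chr12:58795024-58795144, plus strand: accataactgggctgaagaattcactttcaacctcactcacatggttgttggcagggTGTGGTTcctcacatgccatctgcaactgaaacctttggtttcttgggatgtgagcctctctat

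The 10 strongest NCI-H929-only regions had fold enrichments of 17.7 to 19.9 over the local background and ranked 33 to 115 in the whole list. The whole list reached a fold of 34.6, at regions that MM1.S shares. The strongest of all (chr1:30869047-30869425, fold 19.9) was intergenic, 9.5 kb downstream of a TSS of SDC3, which encodes the heparan sulfate proteoglycan syndecan-3. The second lay 161 kb downstream of the TSS of KIF26A, a kinesin-family gene (chr14:104300310-104300784, fold 19.2). Of those that follow, 7 are described here. They were in introns of CPQ (fold 18.3), SLC6A5 (18.1) and ACOXL (17.8), in an exon of ZCCHC8 (17.8), and between genes nearest to PPP2R2D (18.2), LRIG3 (17.9) and GRAPL (17.7). The GRAPL region was in 11 of the other lists, SCLC-P lists among them, with a POU2AF1 fold of 25.2. SLC6A5 encodes a neuronal glycine transporter and PPP2R2D a regulatory subunit of protein phosphatase 2A. None of the 10 was at a promoter. POU2AF1 was called at 9 of the 10 in DMSO, and the 5 strongest NCI-H929-only regions with POU2AF1 are therefore among them: SDC3 (POU2AF1 fold 11.9), KIF26A (6.30), CPQ (7.05), PPP2R2D (11.2) and SLC6A5 (8.56). None of the 10 was called for IRF4 after AU-15330.

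Of these 10, 2 lie close to the edge of the rule, as the nearest MM1.S region was 0.429 kb away at GRAPL and 1.43 kb away at SLC6A5. Over all NCI-H929-only regions the median distance to the nearest MM1.S DMSO region was 19900 bases. Only 49 had an MM1.S region within 10 bases and 2977 (8.18%) within 1 kb, while 65 of the other regions were overlapped by 10 bases or fewer. The regions nearest to MM1.S regions differed from the rest in kind. Under 1 kb away, 35.6% were at promoters and the median fold was 3.87, against 4.38% at promoters and a median fold of 4.87 at 100 kb or more.

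Fold, which helped to make the calls, is a description here. The median was 4.47 in NCI-H929-only regions and 5.52 in the other regions, and the median width was 276 and 426 bases. When the whole list was split into 5 classes of equal size by fold, NCI-H929-only regions made up 74.3% of the weakest class and 36.1% of the strongest. The depth of the 2 IRF4 DMSO libraries was similar, with a background pileup (the number of fragments expected over a base) of 2.44 in NCI-H929 and 2.19 in MM1.S. Computed from the summit pileups, at most about 89.9% of the NCI-H929-only regions and 96.6% of the other regions would pass the MM1.S threshold if bound equally in a library of that depth, and 48.8% against 80.4% had over 95% chance each to pass. This is an upper estimate, because the listed heights are those of regions that passed the caller.

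NCI-H929-only regions were mostly distal. Their summits were within 1 kb of a protein-coding TSS in 2830 cases, or 7.78% (7.5 to 8.06), against 39.1% (38.5 to 39.7) of the other regions and 21.6% of the whole list. Introns held 40.0% of NCI-H929-only regions against 26.1% of the other regions, and intergenic sequence 48.8% against 31.8%. The median distance to a TSS was 42.9 kb against 7.74 kb, and 32.4% against 15.6% were over 100 kb from one. The lower promoter share held in each class by fold, from 11.7% against 50.2% in the weakest to 2.89% against 20.5% in the strongest. The share varied with which MM1.S list the other regions overlapped. The other regions that overlapped the MM1.S IRF4 list but not the MM1.S POU2AF1 list numbered 5689 and were at promoters in 9.74% (8.98 to 10.5), close to NCI-H929-only regions, whereas the 23101 that overlapped MM1.S POU2AF1 were at promoters in 42.9% to 48.0% according to whether MM1.S IRF4 was there as well.

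**Figure D1:**
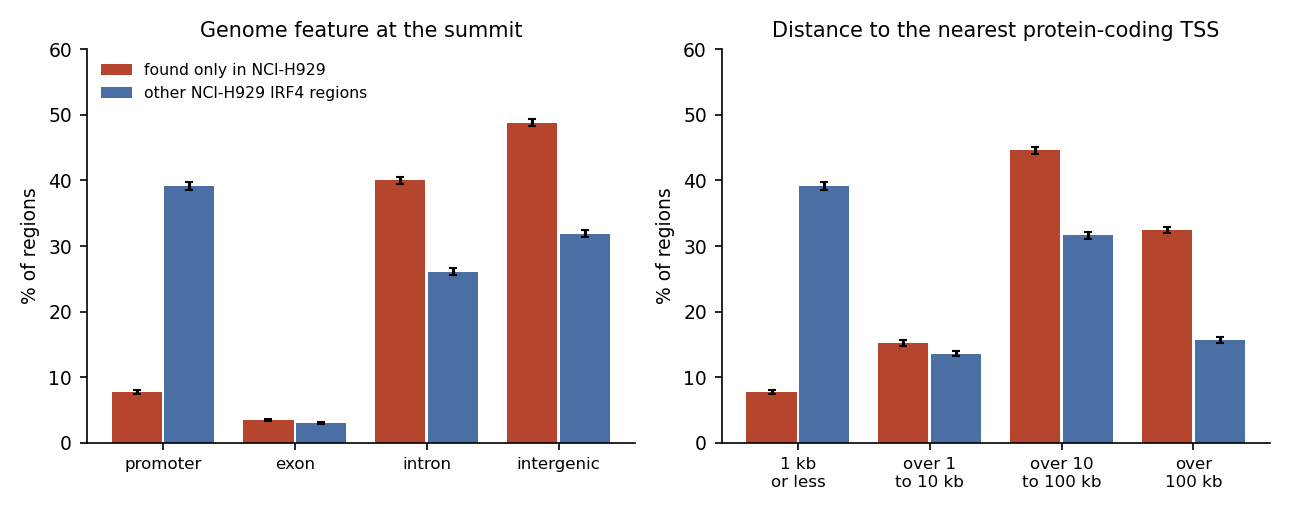
Share of regions by genome feature at the summit (left) and by distance from the summit to the nearest protein-coding TSS (right), in percent. Red bars are the 36384 NCI-H929-only regions, blue bars the 28790 other regions of the NCI-H929 IRF4 DMSO list, and error bars exact 95% binomial intervals; promoters make up 7.78% of the red and 39.1% of the blue regions.

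The strongest promoter regions show what these few are like. CPLX2, which encodes the synaptic protein complexin-2, had one 0.337 kb downstream of its TSS (chr5:175796818-175797243, fold 15.3). SLPI, the secretory leukocyte protease inhibitor gene, had one 0.404 kb upstream (chr20:45254779-45255152, fold 14.5), and the receptor gene GPR157 one 0.752 kb upstream with an EICE and an AP-1 word (chr1:9111955-9112312, fold 13.6). All of them carried POU2AF1 in NCI-H929. These 3 were chosen after their values were seen.

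POU2AF1 of the same line was at few NCI-H929-only regions. In DMSO-treated NCI-H929 cells 4881 of them were overlapped by a POU2AF1 region, or 13.4% (13.1 to 13.8), against 56.8% (56.3 to 57.4) of the other regions and 32.6% of the list. At promoters the shares were 30.6% against 83.2%, in introns 11.3% against 36.6%, and between genes 12.2% against 42.0%. The rule is not blind to this measure, since it left out regions with POU2AF1 in MM1.S and the POU2AF1 lists of the lines overlap. Against the 5689 other regions without MM1.S POU2AF1, of which 23% (21.9 to 24.1) had POU2AF1 in NCI-H929, the gap was smaller. Where POU2AF1 was present it lay close to IRF4, with a median of 69 bases between summits, against 81 bases at the other regions, and with a median POU2AF1 fold of 4.37 against 5.09.

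POU2AF1 was more frequent where IRF4 was stronger. The share of NCI-H929-only regions with POU2AF1 was 7.39% in the weakest class by fold and 31.0% in the strongest, against 46.8% and 59.2% of the other regions. Over distal regions alone, these shares were 5.51% and 30.6%, against 28.2% and 51.2%. NCI-H929-only regions with POU2AF1 had a median IRF4 fold of 5.46, against 4.35 for those without. They were also more often at promoters (17.7% against 6.23%), and held the octamer core TTTGCAT in 8.01% (7.26 to 8.81) against 5.17% (4.93 to 5.42). At the other regions the octamer shares with and without POU2AF1 were 4.61% and 4.86%, intervals that overlap. That comparison is mixed with promoter content, since 57.2% of the other regions with POU2AF1 and 15.2% of those without were at promoters. Among the other regions the octamer core was in 1.42% at promoters and 6.84% at distal sites. Whether octamer shares differ by POU2AF1 within distal regions was not tested.

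**Figure D2:**
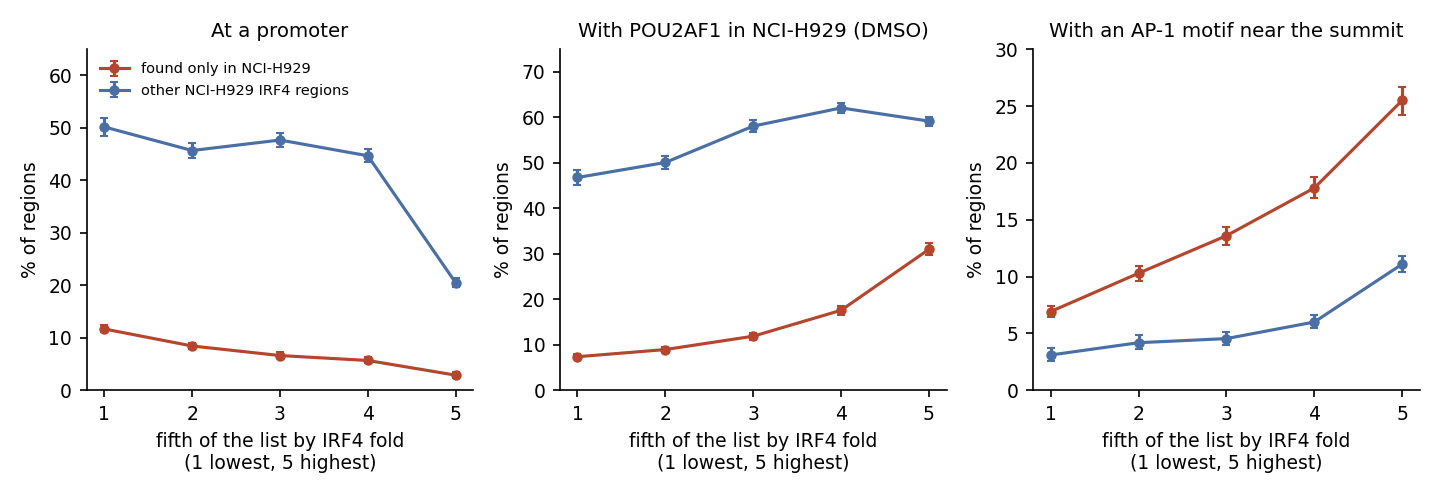
Share of regions at a promoter (left), with a POU2AF1 region in DMSO-treated NCI-H929 cells (middle) and with the AP-1 word within 100 bases of the summit (right), in percent, by class of the whole list by IRF4 fold (5 classes of equal size). Points are NCI-H929-only regions (red) and other regions (blue) with exact 95% binomial intervals; in the strongest class the red points are at 31.0% for POU2AF1 and 25.5% for AP-1.

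AP-1 words were more frequent in NCI-H929-only regions than in the other regions. TGAGTCA, searched on both strands within 100 bases of the summit, was in 4829 NCI-H929-only regions, or 13.3% (12.9 to 13.6), against 6.57% (6.28 to 6.86) of the other regions and 10.3% of the list. This pattern was chosen after the values were seen, and the looser TGANTCA gave 16.8% against 8.89%, with 13.3% of the list. In windows of the same length 2 kb to either side that overlap no region, TGAGTCA was in 3.16% for NCI-H929-only regions and 3.04% for the other regions. Over distal regions alone the shares were 14% against 9.38%. Every class by fold showed the difference, from 6.93% against 3.11% in the weakest to 25.5% (24.2 to 26.7) against 11.1% (10.4 to 11.8) in the strongest. The word was in 9.51% (8.76 to 10.3) of the other regions that overlapped MM1.S IRF4 alone. In the mirrored set, the 10963 IRF4 regions found in MM1.S and in neither NCI-H929 list, it was in 3.70% (3.36 to 4.07), against 3.22% of their flanks. The median fold of that set was 4.07, against 4.47 in NCI-H929-only regions.

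The matches were centred on the IRF4 summits. Per bin of 20 bases, an AP-1 word was found in 2.12% of NCI-H929-only regions just past the summit, against at most 0.481% per bin from 150 bases outward. The median distance of the nearest AP-1 word from the summit was 36 bases in NCI-H929-only regions and 37 bases in the other regions. The windows of CCDC73 and SNX9 printed above, with folds of 17.1 and 16.4, hold the word, at CCDC73 near the edge of the window. The CCDC73 region also holds an EICE and an ISRE-type repeat within 100 bases of its summit, which the capitals do not mark. The SLC6A5 region holds the word too.

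IRF composites, here any EICE, ISRE-type or AICE pattern, were in 5622 NCI-H929-only regions, or 15.5% (15.1 to 15.8), against 17.2% (16.8 to 17.6) of the other regions, 16.2% of the list and 5.66% of the flanks of NCI-H929-only regions. The order differed between classes by fold. In the 4 weaker of the 5 classes NCI-H929-only regions had the higher share (9.66%, 13.4%, 17.4% and 20%, against 8.43%, 10.4%, 12.0% and 14.9% of the other regions), while in the strongest class they had 22.2% against 29.8%. Promoter content differed between these classes too. Of the other regions, 44.7% to 50.2% were at promoters in the 4 weaker classes and 20.5% in the strongest. Composites were in 5.17% of the other regions at promoters, and the classes were not split by promoter. Among regions with a −log10 q of 5 or more the shares were 18.4% against 18.1%. Over distal regions alone they were 16.2% against 24.9%. Of the other regions that overlapped MM1.S IRF4 and no MM1.S POU2AF1, 32.7% (31.4 to 33.9) held a composite. ISRE-type repeats were in 11% of NCI-H929-only and 11.5% of the other regions (11.2% of the list), and EICEs in 3.96% against 6.07% (4.89%). Over distal regions the ISRE-type shares were 11.6% against 17% and the EICE shares 4.12% against 8.32%. AICEs had the higher share in NCI-H929-only regions. The adjacent form was in 237 NCI-H929-only regions, 0.651% (0.571 to 0.739), against 0.316% (0.255 to 0.388) of the other regions and 0.503% of the list. The spaced form was in 0.599% (0.522 to 0.684) against 0.327% (0.264 to 0.399), with 0.479% of the list. Over distal regions the adjacent form was in 0.685% against 0.496% and the spaced form in 0.641% against 0.502%, with intervals that overlap. In the MM1.S mirror set the 2 forms were in 0.137% and 0.10%. AICEs contain a TGANTCA word and so share matches with AP-1.

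RUNX words were in 13.7% (13.4 to 14.1) of NCI-H929-only regions, against 11.6% (11.3 to 12.0) of the other regions, 12.8% of the list and 3.68% of the flanks, and in 7.53% of the MM1.S mirror set. Over distal regions the order turned, at 14.5% (14.1 to 14.8) against 17.6% (17.1 to 18.2). The E-box CAGCTG was in 15.3% against 15.6%, with 15.4% of the list, and over distal regions in 15.4% (15 to 15.8) against 17.4% (16.9 to 18.0). Promoter-type words were fewer: the Sp/KLF word GGGCGGG was in 4.19% against 19.9% (11.1% of the list) and the ETS word CCGGAAGT in 0.399% against 2.53% (1.34%). GAGGAAGT, the preferred word of PU.1, was in 1.72% against 2.89% (2.24%). The MAF word TGCTGAC, searched because MM1.S carries a MAF translocation, was in 3.52% against 3.74% (3.61%), and over distal regions in 3.61% (3.41 to 3.81) against 4.77% (4.46 to 5.09). The octamer core was in 5.55% of NCI-H929-only regions, against 4.72% of the other regions and 5.18% of the list, close to its 5.33% in the flanks. Over distal regions the order turned here too, at 5.84% (5.6 to 6.1) against 6.84% (6.47 to 7.22). An IRF composite, an AP-1 word or a RUNX word was in 36.6% of NCI-H929-only regions, against 30.7% of the other regions, so that in both the larger number held none of the 3 within 100 bases of the summit. A match is a description of the sequence and does not show which protein was bound.

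**Figure D3:**
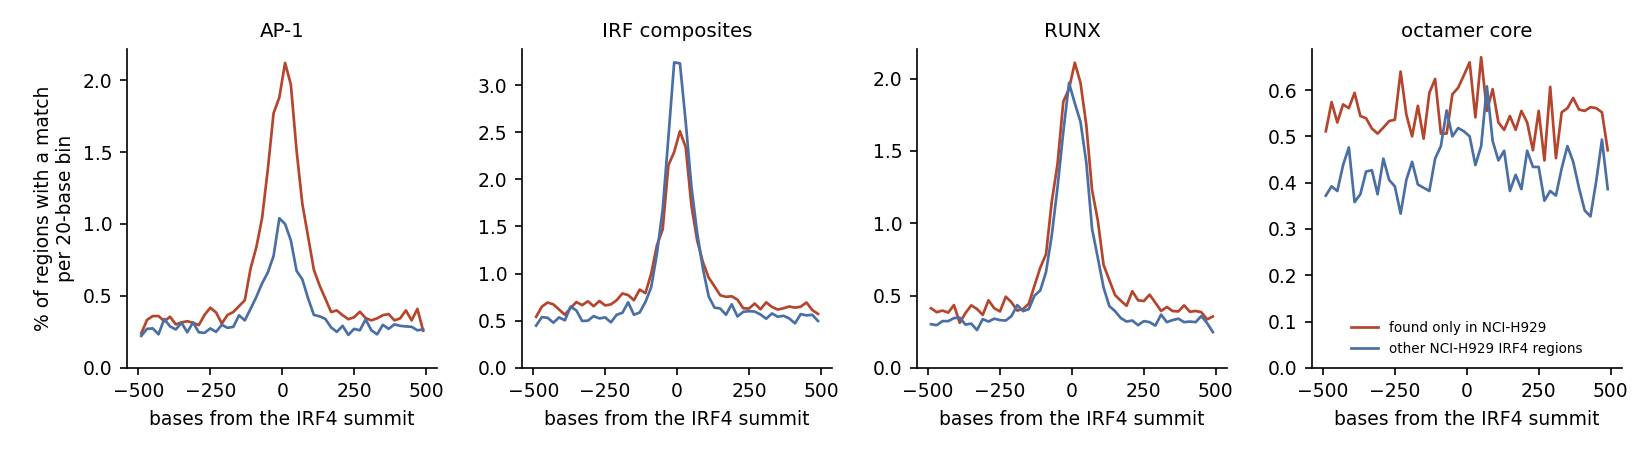
Share of regions with a motif match in each 20-base bin by distance from the IRF4 summit, in percent, for the AP-1 word, any IRF composite, the RUNX word and the octamer core; each panel has its own vertical scale from 0. Red lines are NCI-H929-only regions and blue lines the other regions; AP-1 peaks higher in red (2.12%) and the octamer core has no clear peak in red.

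Few of these regions were called for IRF4 after AU-15330, as in the list as a whole. Of the NCI-H929-only regions 116 were overlapped by a region of the NCI-H929 IRF4 AU-15330 list, or 0.319% (0.264 to 0.382), against 462 of the other regions, 1.60% (1.46 to 1.76), and 0.887% of the list. The NCI-H929 IRF4 AU-15330 list holds 1982 regions and its library had a background pileup of 2.23, near the 2.44 of DMSO. With unchanged binding at that depth, up to about 85.2% of NCI-H929-only regions and 94.7% of the other regions would have passed its threshold, and 40.9% against 74.4% had over 95% chance each to pass. The other regions without MM1.S POU2AF1 were called in 0.369% (0.229 to 0.564), an interval that overlaps that of the NCI-H929-only regions.

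The 116 regions were a mixed set. POU2AF1 was called at 59 of them (50.9%) after AU-15330 and at 57 (49.1%) in DMSO, against 4.03% and 13.4% of all NCI-H929-only regions. A region of at least 1 SCLC-P list overlapped 68 (58.6%), against 14.2% of all, and 26 (22.4%) were over 500 kb from a TSS, against 7.54% of all. On chromosome 13 before 17 Mb, next to the centromere, 7 of the 9 NCI-H929-only regions were called after AU-15330. Of the 5 strongest of the 116, 4 were an intronic region of RSPO2, which encodes a Wnt pathway agonist (fold 16.6), intergenic regions nearest to RHOU (16.0) and the carbonic anhydrase gene CA2 (16.0), and a region in an intron of VPS13B nearest to COX6C (15). These 4 had POU2AF1 in both treatments, and the RHOU region was in 10 of the other lists. At the 116 regions the level of IRF4, taken as summit pileup over background pileup, had a median of 7.62 with AU-15330 and 8.59 with DMSO, and the median ratio within regions was 0.980 (quartiles 0.588 to 1.27). At the 462 other regions the levels were 7.17 and 16.8 and the median ratio 0.438. Only regions that stayed above the caller's threshold enter these ratios, which bounds them from below, more so for weak regions.

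POU2AF1 was called less often after AU-15330 at NCI-H929-only regions than at the other regions. Of 29817 POU2AF1 DMSO regions, 4808 (16.1%) touched NCI-H929-only regions and no other IRF4 region. After AU-15330, 18.0% (16.9 to 19.1) of these were still called for POU2AF1, against 60.3% (59.6 to 61.1) of the 16441 at the other regions and 38.4% of the whole POU2AF1 list. Among the 8568 POU2AF1 regions without IRF4 the share was 7.83%. The difference was smaller but present within distal regions, at 12.7% against 31.4%, and at promoters, at 43.5% against 82.2%. Where POU2AF1 was called in both treatments, its median level ratio of AU-15330 over DMSO was 0.992 (quartiles 0.811 to 1.22) at 865 regions with NCI-H929-only IRF4 sites, against 0.971 at 9920 with other IRF4 regions. At unchanged binding up to about 87.9% of the 4808 and 94.2% of the 16441 would have passed the AU-15330 threshold, and 39.4% against 69.6% had over 95% chance each to pass, so the starting levels differed in the same direction as the shares still called. The rule enters here too, since 0.915% of the 4808 and 90.5% of the 16441 POU2AF1 regions overlapped an MM1.S POU2AF1 DMSO region, and its part in the difference was not tested.

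Across the 17 lists that the rule did not use, at least 1 overlapped 25.1% of NCI-H929-only regions, against 71.7% of the other regions and 45.7% of the list. The remaining 27264 NCI-H929-only regions (74.9%) were in the NCI-H929 IRF4 DMSO list alone. Those 17 include the MM1.S AU-15330 lists and the NCI-H929 POU2AF1 lists, so the rule is not blind to this measure either. Any SCLC-P DMSO list overlapped 10.8% (10.5 to 11.2), against 46.6% (46.0 to 47.2) of the other regions and 26.6% of the list. Among single SCLC-P lists the largest shares were with POU2F3 in DMSO-treated NCI-H526 cells, 7.67% against 38.1% (21.1% of the list), and with POU2F3 in AU-15330-treated NCI-H1048 cells, 7.07% against 42.7% (22.8%). In DMSO-treated NCI-H1048 cells POU2F3 overlapped 2.72% against 23.5% (11.9%), and in AU-15330-treated NCI-H526 cells 1.28% against 10.4% (5.31%). HA-tagged POU2F3 overlapped 1.32% with AU-15330 in NCI-H526 cells (other regions 14.7%, list 7.23%) and 4.45% with DMSO (31.5%, 16.4%). In NCI-H1048 cells it overlapped 0.349% with AU-15330 (4.65%, 2.25%) and 1.29% with DMSO (9.85%, 5.07%). HA-tagged POU2AF2, the POU2F3 coactivator of tuft-like cells, overlapped 0.118% with AU-15330 (0.674%, 0.364%) and 2.5% with DMSO (22.5%, 11.3%). For the further HA pair, with no tagged protein named in its labels, the shares were 0.107% with AU-15330 (0.615%, 0.331%) and 1.1% with DMSO (10.2%, 5.13%). POU2AF1 in AU-15330-treated NCI-H929 cells overlapped 4.03% against 38.1% (19.1%). In each of these lists the share of NCI-H929-only regions was below that of the other regions, with intervals apart. The MM1.S AU-15330 lists, which the rule did not use, overlapped 825 NCI-H929-only regions, or 2.27% (2.12 to 2.43), against 42.5% of the other regions and 20% of the list. They map the same 2 proteins in the same line as the DMSO lists that chose the members. The rule therefore shapes this contrast, which is not independent of it. Most of those 825 were from the POU2AF1 list, with 701 regions (1.93% against 39.6% and 18.6% of the list), and 153 were from the IRF4 list (0.421% against 12.8% and 5.89%). The name NCI-H929-only thus refers to the myeloma DMSO lists.

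**Figure D4:**
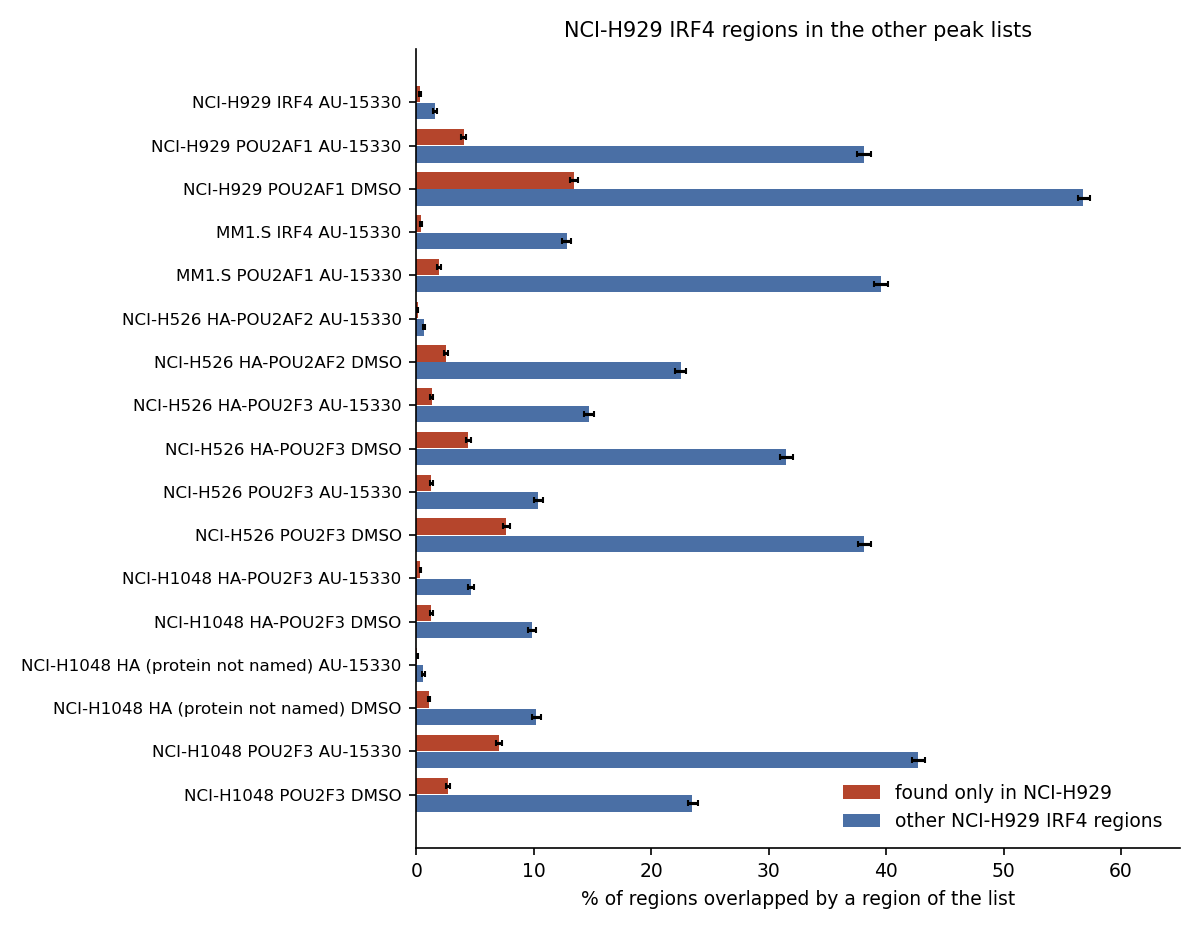
Share of NCI-H929-only regions (red) and other regions (blue) of the NCI-H929 IRF4 DMSO list that a region of each further peak list overlapped, in percent with exact 95% binomial intervals. The 2 MM1.S DMSO lists, used by the rule, are left out; the highest red bar is POU2AF1 in DMSO-treated NCI-H929 cells, at 13.4%.

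By nearest TSS, NCI-H929-only regions fell to 10657 protein-coding genes, of which 734 were nearest to 10 or more. The most belonged to CSMD3 with 61, CNTN5 with 60, CSMD1 with 58, CDH9 with 51, SORCS1 with 48, TENM2 with 47, PCDH7 with 46, NRG3 with 44, and EFNA5 and NTM with 43 each. Among these, CNTN5 and NTM encode cell adhesion molecules of the immunoglobulin superfamily, CDH9 a cadherin, PCDH7 a protocadherin, TENM2 a teneurin, NRG3 a neuregulin and EFNA5 an ephrin. Other regions nearest to them were far fewer, between 2 at CSMD3 and 11 at NTM and PCDH7. Counts of this kind grow with the stretch for which a TSS is nearest, 3.13 Mb for CSMD3 and 1.48 Mb for NTM. Per Mb the 10 genes had 9.99 to 29.0 NCI-H929-only regions, against 12.0 over all chromosomes. Between 1 and 8 regions per gene carried POU2AF1, none was called for IRF4 after AU-15330, and at most 1 per gene was at a promoter.

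Some stretches of the list held NCI-H929-only regions alone. There were 385 runs of at least 10 successive regions, with 5387 members (14.8%). The longest had 67 regions over 4.03 Mb of chromosome 8, 39 of them nearest to CSMD3 and 22 to KCNV1, with 5 carrying POU2AF1 and 15 an AP-1 word. No MM1.S IRF4 or POU2AF1 DMSO region lay anywhere in that span. A run holds by definition only regions that no MM1.S DMSO region overlaps, so few MM1.S regions there follow largely from the selection. POU2F3 in DMSO-treated NCI-H526 cells, a list that the rule did not use, had 103 regions there. A run of 38 lay at RIT2 and SYT4 (chr18:42175132-43564350), with 5 carrying POU2AF1 and 1 MM1.S region of each protein in its span.

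Chromosome 14 had the highest share of NCI-H929-only regions. They were 1509 of its 2040 IRF4 regions (74.0%), against 41.0% on chromosome 19 to 67.2% on chromosome 8 elsewhere. Distal regions alone gave 84.3% on chromosome 14 and at most 74.7% on any other. NCI-H929 had 2040 IRF4 and 953 POU2AF1 regions there, against 325 and 516 in MM1.S. The ratio of MM1.S to NCI-H929 IRF4 regions was 0.159 on chromosome 14 and 0.305 (X) to 0.70 on the other chromosomes, and for POU2AF1 it was 0.541 against 0.927 to 2.40. In each 10 Mb step from 20 to 110 Mb, NCI-H929-only regions made up 66.2% to 82.1%. The MM1.S DMSO lists that chose the members enter the shares, the steps and both ratios. Few MM1.S regions on a chromosome make a high share there, so these values restate one another and are a description. In peak lists, binding in a line and the number of copies of a chromosome it carries cannot be told apart.

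**Figure D5:**
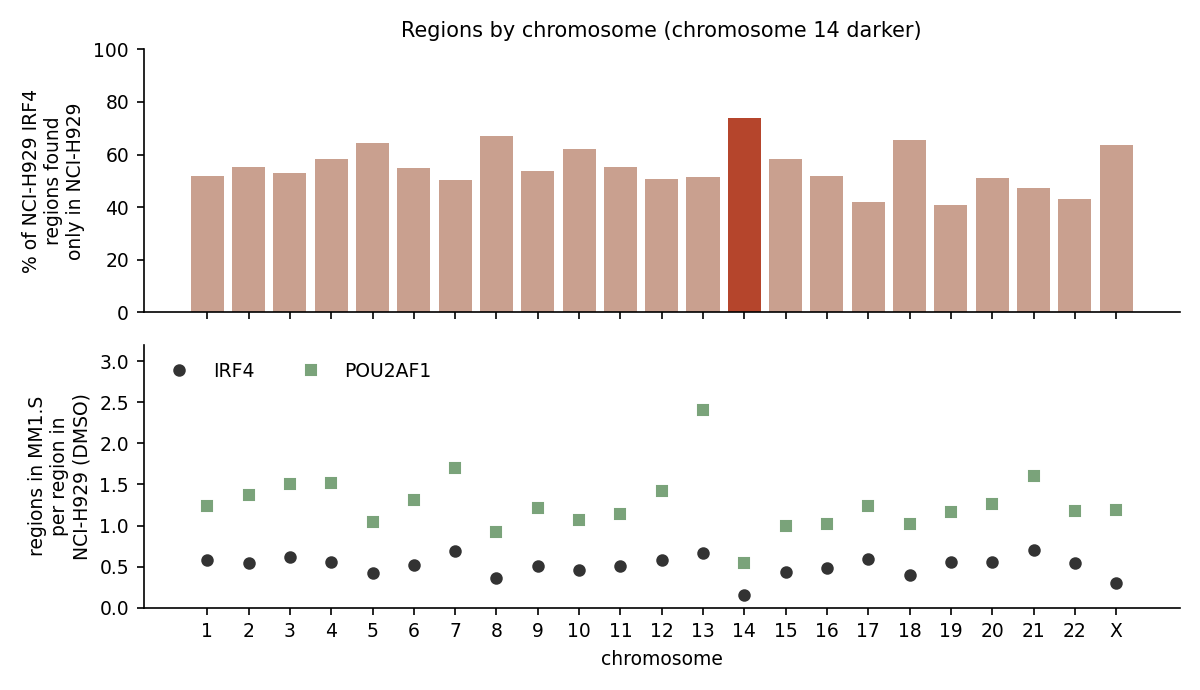
Upper panel, share of the NCI-H929 IRF4 DMSO regions of each chromosome that are NCI-H929-only, in percent, with chromosome 14 (74.0%) darker; lower panel, number of MM1.S regions divided by the number of NCI-H929 regions on the chromosome in the DMSO lists, for IRF4 (circles) and POU2AF1 (squares). On chromosome 14 both ratios are the lowest, at 0.159 and 0.541. The MM1.S DMSO lists that chose the members enter both panels.

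Genes were next scored by whether an NCI-H929-only region lay in the gene or up to 10 kb upstream of it. This held for 9526 of 19962 protein-coding genes (47.7%), and 80.0% had any NCI-H929 IRF4 region. At 2198 genes (11%) NCI-H929-only regions were the sole IRF4 regions of that line. The gene lists below were chosen with earlier results of these data known, hold 4 to 26 genes each, and are read against those shares. Numbers after gene names are the fold of the strongest NCI-H929-only region in the window, and none of the NCI-H929-only regions at the listed genes was called for IRF4 after AU-15330. Long genes are hit more often, and no gene list was corrected for length.

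Of the 8 translocation partner and cyclin D genes of myeloma, 6 had an NCI-H929-only region, with a strongest fold of 3.09 to 7.96. FGFR3, the receptor tyrosine kinase gene that the t(4;14) translocation of NCI-H929 brings under immunoglobulin enhancers, had 1, in an intron 1.06 kb from a TSS (chr4:1794569-1795103, fold 3.67), and no other IRF4 region of NCI-H929. MM1.S also had 1 IRF4 region in the FGFR3 window. NSD2, the histone methyltransferase gene of the same translocation, had 2, the stronger at fold 3.58, beside 2 other regions. In the NSD2 window MM1.S had 3 IRF4 regions. MAF, the partner activated by translocation in MM1.S, had 2, of which the stronger was 0.267 kb from its TSS with POU2AF1 of fold 4.44 (chr16:79600832-79601278, fold 4.49). CCND2 had 1 of fold 7.96 that is nearest to the TSS of its neighbour TIGAR, CCND3 had 1 of fold 3.09 at a promoter, and MYC had 2, up to fold 3.16. None lay in the window of CCND1, where 3 other regions were.

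Plasma cell genes were hit in 19 of 26 cases (73.1%), with 25 having any IRF4 region of NCI-H929. NCAM1, which encodes the surface antigen CD56 that many myelomas display, had 16 NCI-H929-only regions, 5 with POU2AF1 (strongest fold 7.95), beside 4 other regions. ELL2, the elongation factor gene that promotes secretory immunoglobulin RNA processing, had 5 (fold 7.44). POU2AF1 had 5 in its own window, 2 of them with POU2AF1 protein (fold 7.17), beside 8 other regions. CD28 (6.40) and FKBP11 (5.53) had 1 each. Among the marker genes fixed for plasma cells, SDC1, TNFRSF17, PRDM1, JCHAIN, CD38 and SLAMF7 had NCI-H929-only regions of fold 2.60 to 4.64, and XBP1, IRF4 and MZB1 had none but did have other regions.

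Genes of the B cell stage were hit in 14 of 26 cases (53.8%). The strongest was in an intron of PAX5, the B cell identity factor that plasma cells silence (chr9:36923897-36924366, fold 9.58), which had 5 NCI-H929-only regions and 1 other. CIITA, the master regulator of MHC class II genes, had 2 (8.29), FOXP1 had 14 (7.96) and BACH2 had 16 (6.35). IRF8, the relative of IRF4 that prevails in earlier B cells, had 1, 10.2 kb from its TSS, with a POU2AF1 region of fold 9.81 (chr16:85888804-85889120, IRF4 fold 6.92). That was its only IRF4 region in NCI-H929, and MM1.S had no IRF4 region in the window. In the IRF family, 5 of 9 genes were hit (55.6%), the others being IRF2 (6.93), IRF5 (3.79), IRF1 (3.55) and IRF3 (3.18).

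Genes of the factors that could pair with IRF4 were hit at varied rates. In the AP-1 and BATF list, 4 of 10 genes had an NCI-H929-only region (40.0%): JUND (fold 6.72), BATF (6.5), JUN (6.10) and FOSL1 (3.92). In the ETS list it was 6 of 9 (66.7%), with ELF1 (6.28) and FLI1 (6.11) strongest, then ERG (4.74), SPI1 (4.46), which encodes PU.1, and ETS1 (4.21). The SPI1 region is nearest to the TSS of its neighbour MYBPC3. In the RUNX list 3 of 4 genes were hit (75%) and CBFB was not. RUNX1, which had 31 IRF4 regions in MM1.S, had 25 NCI-H929-only and 20 other regions, RUNX2 had 10 and 5, and RUNX3 had 3 and 2. The intronic RUNX2 region (chr6:45660137-45660589, fold 13.9) carried POU2AF1. Of the Ikaros genes 3 of 6 were hit (50%), with folds of 3.06 to 4.19 for IKZF1, IKZF2 and IKZF3.

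The NF-kB list had 9 of 16 genes (56.2%), led by TRAF2 (7.64), CYLD (6.97), TNIP1 (6.70), TRAF3 (5.41) and MAP3K14 (4.69), with the strongest region in an intron at each. TRAF3, whose loss activates the non-canonical pathway in myeloma, lies on chromosome 14 and had 6 NCI-H929-only regions and 1 other, with no IRF4 region in MM1.S. The receptor list had 11 of 13 genes (84.6%), led by IL4R (9.42), FGFR1 (8.21), TNFRSF8 (7.19), which encodes CD30, IL10RA (7.03) and INSR (6.78). TNFRSF8 had 4 NCI-H929-only regions, no other region in NCI-H929 and no MM1.S IRF4 region. The RAS and MAPK list had 8 of 13 (61.5%), with SPRED2 (8.0) strongest. SPRY2 (4.93), a feedback inhibitor of receptor tyrosine kinase signalling, was hit at its promoter and had no other IRF4 region in either line. SPRED1 (4.83), DUSP4 (4.31) and DUSP5 (4.17) followed.

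Interferon-stimulated genes were hit in 10 of 18 cases (55.6%). These genes answer interferon through ISRE elements. At the promoters of OASL (chr12:121039018-121039412, fold 9.82, 0.010 kb from the TSS) and IFIT2 (chr10:89301841-89302199, fold 5.53, 0.10 kb) there was an NCI-H929-only region, and the other regions of NCI-H929 and the MM1.S IRF4 list had none in the window. OASL and IFIT2 were the 2 of the 18 genes where NCI-H929-only regions were the sole IRF4 regions of NCI-H929. That is near the 11% of all genes, as 55.6% hit is near 47.7%, so neither count sets this list apart. MX1 (5.23) and IFI44 (4.93) were hit in the gene or upstream, and each had at least 1 other region too.

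Lists of other cell types and of housekeeping genes gave 9 of 13 T cell genes (69.2%), 4 of 12 hepatocyte genes (33.3%), 4 of 12 myeloid genes (33.3%), 6 of 12 tuft cell genes (50%) and 8 of 16 housekeeping genes (50%). In the T cell list NCI-H929-only regions were the sole NCI-H929 IRF4 regions at 7 of the 13 genes: CD3D, CD3E, CD3G, CD4, ZAP70, GATA3 and BCL11B. The background for that measure is 11% of all genes. CD3D and CD3G share 1 region and CD3E lies near them on chromosome 11, so these genes are not separate loci. Of the marker genes fixed for T cells (CD3D, CD3E, CD2 and LCK), CD2 and LCK had no NCI-H929-only region but did have other regions. CD5 and CD7 had no IRF4 region of NCI-H929 at all. The strongest fold at these 7 genes ran only from 3.16 at CD3D and CD3G to 5.05 at GATA3. MM1.S had 1 IRF4 region each in the windows of CD3G and CD4. By fold, ITGAM (4.35), PTGS1 (5.67) and PGK1 (7.26) led the myeloid, tuft cell and housekeeping lists. TCF7 (8.0) and CD8A (6.52) had the strongest regions of the T cell list, but each also had 1 other region and so is not among those 7. At GATA3, a T cell and epithelial factor, 2 of 3 regions carried POU2AF1, and the strongest was at the promoter (5.05). Peak lists hold no expression, so whether these genes were transcribed was not tested.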

How the data were processed

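ChIP-seq of IRF4 and POU2AF1 in 2 myeloma lines, and of POU2F3 or HA-tagged proteins in 2 SCLC-P lines, gave 20 deposited peak lists, 1 library per condition. According to the study's methods and the submitters' processing notes, Trimmomatic 0.39 (trimming), BWA 0.7.17-r1198-dirty (alignment to hg38), SAMtools 1.9 and Picard (filtering) were applied by the authors, who called peaks per library with MACS2 2.1.1.20160309 at a q-value of 0.05, with no control named in the sources used here, and removed blacklisted regions. Each deposited region has a fold enrichment ratio of its summit over local background, a −log10 p and −log10 q of that summit, a score that is a scaled −log10 q, and a summit position; no read counts were used. Fold and p depend on depth, so a weaker or shallower library lists fewer regions.

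Regions on chromosomes 1 to 22 and X were kept, which left out 0.323% to 12.5% per list. The summit pileup was recovered as the whole number whose Poisson tail matched the deposited p within 0.002 on the −log10 scale, and the background pileup, 1.21 to 4.03 over the 18 lists where this worked, stands for depth. Overlap meant at least 1 shared base. Promoters were summits within 1 kb of a protein-coding TSS of GENCODE 44, and gene windows were the gene body and 10 kb upstream. Motifs were searched on both strands within 100 bases of the summit. Flanks were region-free windows of equal length, 2 kb away on both sides. Intervals are exact binomial (Clopper-Pearson) at 95%.

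The members and gene lists were chosen with earlier results of these data known. Named were the 10 strongest members, the 10 genes nearest to most members, the 5 strongest with POU2AF1 and the 5 strongest still called with AU-15330, the translocation and cyclin D genes, up to 5 genes of each other list by their strongest member, and the 3 longest runs. Some items that this rule names are not reported here. Alternatives covered thresholds, overlaps, distances and list lengths. Python 3.11.15, numpy 2.4.6, pandas 2.3.3, SciPy 1.17.1, pysam 0.24.0, samtools 1.23.1 and matplotlib 3.10.9 were used, and the calculations were tested on simulated data.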

Additional observations from a re-analysis of the deposited data

How the results depend on the processing

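At a −log10 q cut-off of 5 in the NCI-H929 IRF4 list there were 22359 NCI-H929-only regions, with 7.35% at promoters, 18.3% with POU2AF1, 0.403% still called for IRF4 after AU-15330, 18.4% with an IRF composite, 16.8% with AP-1, 29.4% in any list the rule did not use and a longest run of 40. Of the chromosome 14 regions at that cut-off, 67.7% were NCI-H929-only. The IRF composite then had a higher share than in the other regions (18.1%), the reverse of the order with all regions. With no MM1.S region within 1 kb the shares were 5.30% at promoters, 13.1% with POU2AF1, 15.8% with an IRF composite, 13.6% with AP-1 and 24.0% in another list. By that setting 70.2% of the chromosome 14 regions were NCI-H929-only. With lists of equal length, taken by fold, 14889 regions remained NCI-H929-only by the rule, and the values were 5.08% at promoters, 20.6% with POU2AF1, 0.423% still called for IRF4, 16.8% still called for POU2AF1, 20.1% with an IRF composite, 19.1% with AP-1, 4829 genes, 30.2% in another list and a longest run of 41. With these shorter lists 66.8% of the chromosome 14 regions were NCI-H929-only. The promoter share was 10.2% at 2 kb and 14.2% with the TSSs of all genes. The POU2AF1 share was 9.81% with 50% of the region covered, 11.6% by summits within 200 bases, 7.28% at a −log10 q cut-off of 5 in the POU2AF1 list and 12.0% over distal regions. IRF4 was still called at 0.192% with 50% cover and at 0.126% at a −log10 q cut-off of 5 after AU-15330. POU2AF1 was still called at 12.8% with 50% cover, 11.4% with that threshold and 12.7% over distal regions. An IRF composite was in 9.84% within 50 bases and 16.2% of distal regions, AP-1 in 16.8% as TGANTCA and 14% of distal regions, and 3511 genes had a region within 2 kb of a TSS. In each of these settings the promoter, POU2AF1 and still-called shares stayed below, and the AP-1 share above, that of the other regions. The other 16 values moved by less than their interval or spread, or for counts of regions and genes by less than 1.5 times. Among these was the median IRF4 level ratio at NCI-H929-only regions called in both treatments, whose quartiles are wide (0.588 to 1.27). It was 0.980 in the main setting, 0.813 over 90 regions at the −log10 q cut-off of 5 and 0.692 over 63 regions with lists of equal length. The distal, AP-1, chromosome 14 and any-list settings were chosen after seeing the data.

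No paired analysis was possible because the labels carry no replicate numbers and each condition has 1 library, and no library was left out because none has a replicate. The lists hold only regions above a threshold, and binding below it is not listed. A difference between the lines cannot be told apart from a difference between 2 libraries. Repeat content was not analysed here.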

Other observations

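NCI-H929-only regions and the 10963 IRF4 regions of MM1.S that overlapped neither NCI-H929 DMSO list can be set side by side. Promoters held 7.78% of NCI-H929-only regions and 9.87% of the MM1.S set. POU2AF1 of the same line in DMSO was at 13.4% of NCI-H929-only regions and 21.1% of the MM1.S set. An EICE was in 3.96% against 6.5%, and an ISRE-type repeat in 11% against 8.62%. The E-box was in 15.3% against 10.3%. AP-1 words (13.3% against 3.70%) and RUNX words (13.7% against 7.53%) were in a higher share of NCI-H929-only regions. The sets differ in strength, with a median fold of 4.47 in NCI-H929-only regions and 4.07 in the MM1.S set. AP-1 shares rose with fold among NCI-H929-only regions. Motif shares of the whole MM1.S IRF4 list are not given, and whether fold accounts for the gaps was not tested.

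Of the 14 promoters with an NCI-H929-only region still called for IRF4 after AU-15330, the 2 strongest were those of GAGE2E (IRF4 fold 7.55), a cancer-testis antigen gene on the X chromosome, and CES4A (6.78), a carboxylesterase gene. They were chosen after their values were seen.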
